A study of Mus musculus with 59 samples.

Results

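Axon guidance genes of the ephrin, semaphorin, plexin, neuropilin, Slit, Robo and netrin families were described in mouse cortex and hippocampus. Members were chosen by symbol alone: Eph receptors and ephrins of the A and B classes, semaphorins of classes 3 to 7, all plexins, Nrp1 and Nrp2, the Slits and Robos, and Ntn1 with its receptors Dcc and Unc5a to Unc5d. The rule matched 66 of 57180 gene rows, and all 66 were above 0 counts in every library. The study sequenced poly(A) RNA of male mice to ask how reduced dosage of a pair of mitochondrial genes from the region that matches human 22q11.2 acts alone and combined. One is Slc25a1, whose product carries citrate across the inner mitochondrial membrane, and the other is Mrpl40, which codes for a part of the ribosome in mitochondria. Wild-type animals (Mrpl40 +/+ and Slc25a1 +/+) gave 9 cortex and 8 hippocampus libraries. Slc25a1 hets (Mrpl40 +/+ with Slc25a1 -/+), Mrpl40 hets (Mrpl40 -/+ with Slc25a1 +/+) and double hets (-/+ for both genes) gave 7 libraries per tissue each. The 59 libraries came from 30 animals, 29 of them with both tissues. Neither the age of the animals nor the construction of the alleles is given in the sources used here. Each library is the bulk RNA of a tissue piece, so that fewer cells of a type and less RNA per cell cannot be told apart.

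Guidance molecules steer growing axons by attraction or repulsion, and many keep a role in synapse formation and spine shape in the adult brain. Ephrins are ligands tethered to the cell surface, and they bind Eph receptor tyrosine kinases on the neighbouring cell. Secreted semaphorins bind neuropilins, which pair with plexins to carry the signal, while most membrane-bound semaphorins bind plexins directly. Slits repel through Robo receptors, and netrin-1 attracts through Dcc and repels through Unc5 receptors. In the hippocampus these families are known for the layered ingrowth of entorhinal and mossy fibre axons, and in cortex for the mapping of thalamic axons and the layering of projection neurons.

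Totals ranged from 21443017 to 32120906 counts per library. Levels are CPM, counts scaled to the library total after TMM normalization, which evens out differences in composition between libraries, and the guidance genes together held 0.315% to 0.336% of the counts in cortex and 0.386% to 0.470% in hippocampus. The labelled tissues differed in most of their markers, though not all went the same way. Prox1, a transcription factor of dentate granule cells, had a median of 11.9 CPM in wild-type cortex and 244 CPM in hippocampus. Rorb, a nuclear receptor of cortical layer 4 neurons, had 110.9 and 32.8 CPM. In the wild-type test described below, 12 of 16 hippocampus markers were called higher in hippocampus and 1 lower. Of 17 cortex markers, 10 were called lower there and 5 higher. Over all genes tested, 30.4% were called higher in hippocampus and 30.1% lower. In 6 animals the Slc25a1 level did not match the labelled genotype. In cortex animals 6 and 7, labelled wild type, had 12.1 and 12.7 CPM, where the other 7 had 23.1 to 26.2 CPM. Animals 12 and 13, labelled Slc25a1 het, had 21.6 and 24.2 CPM, where the other 5 had 11.1 to 13.0 CPM, and animals 29 and 30, labelled double het, had 21.9 and 20.9 CPM, where the other 5 had 10.8 to 12.2 CPM. Hippocampus gave the same split. Groups are the labelled ones throughout. Mrpl40 had similar levels in all groups (medians 17.1, 17.8, 17.5 and 17.4 CPM in cortex of the genotypes in the order given above). In hippocampus its medians were 16.0, 15.1, 15.4 and 16.3 CPM. The Mrpl40 labels could thus not be checked by its level. In hippocampus 4 libraries stood apart. That of wild-type animal 8 had the lowest summed hippocampus markers (1116 CPM, other wild-type libraries up to 1827 CPM) and the highest summed cortex markers of the wild-type hippocampus libraries (1531 CPM), that of animal 12, labelled Slc25a1 het, had a cerebellar granule cell sum of 935 CPM, and those of animals 22 and 30 had choroid plexus sums of 87.3 and 101 CPM. Results are given with all libraries, and without these where that bears on them.

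In wild type the guidance genes differed widely between hippocampus and cortex. The differences were largest for Sema3a, Efna5, Sema3f and Plxnd1, lower in hippocampus, and for Sema5a, Slit1, Epha7, Nrp2 and Nrp1, higher in hippocampus. With edgeR's quasi-likelihood test, paired by animal and adjusted over all genes, 53 of 66 passed at a false discovery rate of 0.05, where 60.6% of all genes tested passed. Of the 53, 32 were higher in hippocampus (30.4% of all genes) and 21 lower (30.1%). A fold of at least 1.5 together with the test was reached by 32 of 66 guidance genes and by 24.9% of all genes, and a fold of at least 4 by the 9 genes just named and by 4.34% of all genes. The median log2 fold change of hippocampus against cortex was 0.19 over the 66 and 0.0066 over all genes, and the median size of the change regardless of sign was 0.54 against 0.27. Apart from the neuropilins, both higher, and the Slits, of which 2 were higher and 1 did not pass, every family had members called in each direction, as the plot of log2 fold changes by family shows.

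**Figure D1:**
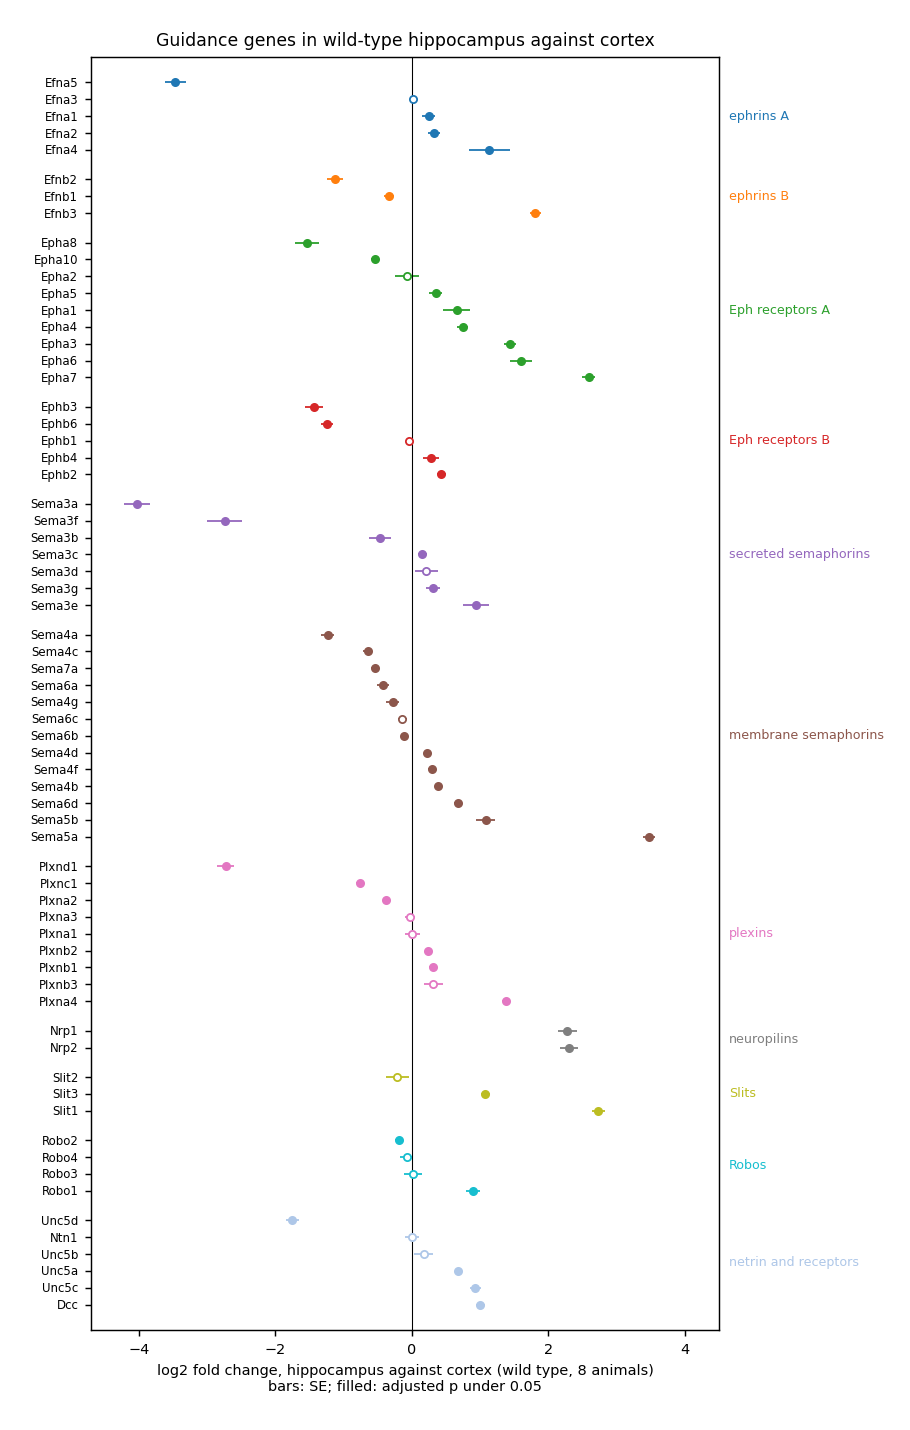
Log2 fold change of hippocampus against cortex in wild type (8 animals with both tissues) for each of the 66 guidance genes, grouped by family on the vertical axis. Bars are standard errors and filled points passed the test at an adjusted p under 0.05; members of most families lie on both sides of 0, from Sema3a at -4.03 to Sema5a at 3.47.

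The stretches upstream of the start sites of 5 of these 9 genes are shown, 2 lower and 3 higher in hippocampus. Each of the 5 is GC-rich and holds a GC box, the feature for which they are shown. It was not counted by direction over all members. The stretches come from RefSeq on GRCm38.p6, are cut where an annotated exon of the gene begins, and were chosen after the values were seen. The coordinates are chr17:62881318-62881567 (minus strand) for Efna5, chr6:115995006-115995255 (minus strand) for Plxnd1, chr1:62703067-62703284 (plus strand) for Nrp2, chr15:32244563-32244809 (plus strand) for Sema5a and chr4:28812881-28813130 (plus strand) for Epha7. Capitals mark the GC box, the motif of Sp-family transcription factors, searched as GGGCGG and CCGCCC with overlaps counted. Each is printed 5′ to 3′ on the gene's strand.
Efna5: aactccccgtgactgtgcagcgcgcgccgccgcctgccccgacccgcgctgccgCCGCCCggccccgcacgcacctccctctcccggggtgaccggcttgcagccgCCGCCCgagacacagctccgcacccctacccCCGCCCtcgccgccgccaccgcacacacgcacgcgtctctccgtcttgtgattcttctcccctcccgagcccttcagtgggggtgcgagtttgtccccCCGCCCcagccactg
Plxnd1: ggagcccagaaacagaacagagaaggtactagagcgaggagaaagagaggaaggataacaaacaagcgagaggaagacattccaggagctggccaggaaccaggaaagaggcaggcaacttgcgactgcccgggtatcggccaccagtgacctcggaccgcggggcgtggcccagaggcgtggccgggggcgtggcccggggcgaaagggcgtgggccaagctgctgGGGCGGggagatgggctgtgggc
Nrp2: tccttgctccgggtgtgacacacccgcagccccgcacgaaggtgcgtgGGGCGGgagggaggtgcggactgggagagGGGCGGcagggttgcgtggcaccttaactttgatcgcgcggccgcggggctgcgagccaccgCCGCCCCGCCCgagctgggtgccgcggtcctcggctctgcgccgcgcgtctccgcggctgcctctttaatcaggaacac
Sema5a: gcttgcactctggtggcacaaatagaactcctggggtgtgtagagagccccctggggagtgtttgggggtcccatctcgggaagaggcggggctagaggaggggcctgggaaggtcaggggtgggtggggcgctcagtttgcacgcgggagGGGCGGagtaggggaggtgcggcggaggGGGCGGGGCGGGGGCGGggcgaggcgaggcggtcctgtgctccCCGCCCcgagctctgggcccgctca
Epha7: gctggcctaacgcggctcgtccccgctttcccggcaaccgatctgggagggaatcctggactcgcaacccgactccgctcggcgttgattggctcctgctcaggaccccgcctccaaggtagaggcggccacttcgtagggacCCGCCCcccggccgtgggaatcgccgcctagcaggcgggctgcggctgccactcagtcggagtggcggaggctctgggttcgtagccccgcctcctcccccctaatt
Efna5 has 4 matches, Plxnd1 has 1, Nrp2 has 4, Sema5a has 5 and Epha7 has 1. Of the 66 members 56 had an entry, and 41 of these (73.2%) held a GC box in the 250 bases before the start, against 32.7% of all 32851 promoter entries. The median GC content of those stretches was 64.6% for the members and 52.4% for all entries. Members were counted by 1 entry each, whereas all entries were counted singly, without merging those of a gene or keeping only the genes tested. A match is only a description of the letters.

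Among the ephrin-A ligands, which are anchored to the membrane by a lipid, Efna5 stood out. Efna5 ranged from 44.8 to 60.8 CPM (median 52.5) in wild-type cortex and from 2.49 to 7.64 CPM (median 3.82) in wild-type hippocampus. The tissues did not overlap, and the log2 fold change was -3.46 ± 0.158 (SE), adjusted p = 1.43e-16. Efna4, the scarcest of the family, had medians of 0.231 CPM in cortex and 0.595 CPM in hippocampus with overlapping ranges. Its log2 fold change was 1.14 ± 0.30 (adjusted p = 0.00139), and 10.5% of its exon length overlaps a gene on the other strand. Efna1 and Efna2 were higher in hippocampus by log2 fold changes of 0.25 and 0.33, and Efna3 did not pass at 0.02 (95% interval -0.08 to 0.13). The call of Efna1 was lost without animal 8 (adjusted p = 0.0808) and without the 6 mismatched animals (adjusted p = 0.190).

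The ephrin-B ligands, which span the membrane and can signal back into their own cell, went in opposite directions. Efnb3 ranged from 33.8 to 59.6 CPM (median 41.0) in cortex and from 138 to 178 CPM (median 159) in hippocampus. All hippocampus libraries were above all cortex libraries, at a log2 fold change of 1.81 ± 0.0834 (adjusted p = 4.4e-17). Efnb2 ranged from 51.6 to 62.7 CPM (median 56.8) in cortex and from 19.4 to 47.1 CPM (median 23.5) in hippocampus, a log2 fold change of -1.13 ± 0.120 (adjusted p = 5.14e-09). The highest hippocampus value of Efnb2 was that of animal 8. Efnb1 was lower by a log2 fold change of -0.33.

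Of the 9 EphA receptors, which mainly bind ephrin-A ligands, 6 were higher in hippocampus, 2 were lower and 1 did not pass. Epha7 showed the largest difference, from 37.6 to 51.8 CPM (median 45.3) in cortex to between 153 and 329 CPM (median 290.1) in hippocampus. The ranges were far apart, and the log2 fold change was 2.59 ± 0.098 (adjusted p = 1.1e-18). Epha6 followed with 6.23 to 12.3 CPM (median 7.65) in cortex and 16.2 to 31.7 CPM (median 24.9) in hippocampus (log2 fold change 1.60 ± 0.162, adjusted p = 1.82e-09). Epha3 had 4.59 to 6.59 CPM (median 5.85) and 12.1 to 18.8 CPM (median 16.4), a log2 fold change of 1.44 ± 0.0907 (adjusted p = 1.01e-15). Neither of these receptors overlapped between the tissues.

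Epha4, which also binds ephrin-B ligands, ranged from 188 to 254 CPM (median 237) in cortex and from 242 to 456 CPM (median 413) in hippocampus. Its ranges touched only through animal 8, the other hippocampus libraries being at 355 CPM or more, and the log2 fold change was 0.75 ± 0.0804 (adjusted p = 3.25e-09). Epha5 and Epha1 were higher by log2 fold changes of 0.35 and 0.66, the latter at medians of 0.692 and 1.07 CPM. On the other side stood Epha8, with 6.90 to 12.5 CPM (median 8.92) in cortex and 2.07 to 4.81 CPM (median 2.93) in hippocampus, a log2 fold change of -1.53 ± 0.179 (adjusted p = 1.5e-08). Epha10, a family member without kinase activity, was lower by -0.54, and Epha2 did not pass at -0.07 (95% interval -0.40 to 0.27). Side by side, the ligand Efna5 was lower in hippocampus while Epha3, Epha4, Epha5, Epha6 and Epha7 were higher. Not all members ran this way: the receptors Epha8 and Epha10 were lower, and the ligands Efna1, Efna2 and Efna4 were higher.

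The EphB receptors, whose main ligands are ephrin-Bs, had 2 members higher and 2 lower in hippocampus. Ephb3 ranged from 31.5 to 50.0 CPM (median 45.0) in cortex and from 13.5 to 18.0 CPM (median 16.3) in hippocampus, with no overlap (log2 fold change -1.43 ± 0.132, adjusted p = 3.54e-10). Ephb6, whose kinase is inactive, ranged from 141 to 188 CPM (median 152) and from 53.6 to 74.2 CPM (median 68.2), again without overlap (log2 fold change -1.24 ± 0.0915, adjusted p = 2.19e-12). Ephb2 and Ephb4 were higher by log2 fold changes of 0.43 and 0.28. Ephb4 was not called without the 6 mismatched animals (adjusted p = 0.0567), and Ephb1 did not pass at -0.04 (95% interval -0.14 to 0.07).

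Among the secreted semaphorins, Sema3a had the largest difference of all members. Sema3a, a repellent that acts through Nrp1, ranged from 32.9 to 42.2 CPM (median 36.0) in wild-type cortex and from 1.17 to 3.07 CPM (median 2.06) in hippocampus. No library came near the other tissue, and the log2 fold change was -4.03 ± 0.193 (adjusted p = 3.94e-16). Sema3f, which acts through Nrp2, ranged from 15.0 to 21.8 CPM (median 18.7) in cortex and from 1.17 to 8.35 CPM (median 2.36) in hippocampus. Animal 8 held that highest value and the other 7 hippocampus libraries were at 3.44 CPM or less. The log2 fold change of Sema3f was -2.74 ± 0.256 (adjusted p = 4.81e-10) with animal 8 and -3.02 ± 0.253 without it.

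Sema3e, which signals through Plxnd1 without need of a neuropilin, went the other way, with 17.3 to 30.0 CPM (median 23.4) in cortex and 32.1 to 57.4 CPM (median 47.2) in hippocampus. These ranges did not overlap in wild type (log2 fold change 0.94 ± 0.192, adjusted p = 0.000127). Smaller differences were found for Sema3g (0.31) and Sema3c (0.15), both higher in hippocampus, and for Sema3b (-0.47). Without the 6 mismatched animals Sema3g and Sema3c were not called (adjusted p = 0.0880 and 0.129), and with DESeq2 the latter had an adjusted p of 0.0519. Sema3d did not pass at 0.21 (95% interval -0.11 to 0.54).

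Both neuropilins, the binding receptors of secreted semaphorins, were higher in hippocampus. Nrp1 ranged from 10.1 to 15.8 CPM (median 12.6) in cortex and from 54.7 to 75.8 CPM (median 61.1) in hippocampus, a log2 fold change of 2.28 ± 0.139 (adjusted p = 8.12e-14). Nrp2 ranged from 15.3 to 33.6 CPM (median 21.0) in cortex and from 85.8 to 122 CPM (median 111) in hippocampus, a log2 fold change of 2.31 ± 0.130 (adjusted p = 1.49e-14). The tissues were clearly separate for each. The ligands Sema3a and Sema3f were lower in the tissue in which their neuropilins were higher, as the plot of single libraries shows. This did not hold for all secreted semaphorins, since Sema3c, Sema3e and Sema3g were called higher in hippocampus and Sema3b lower.

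**Figure D2:**
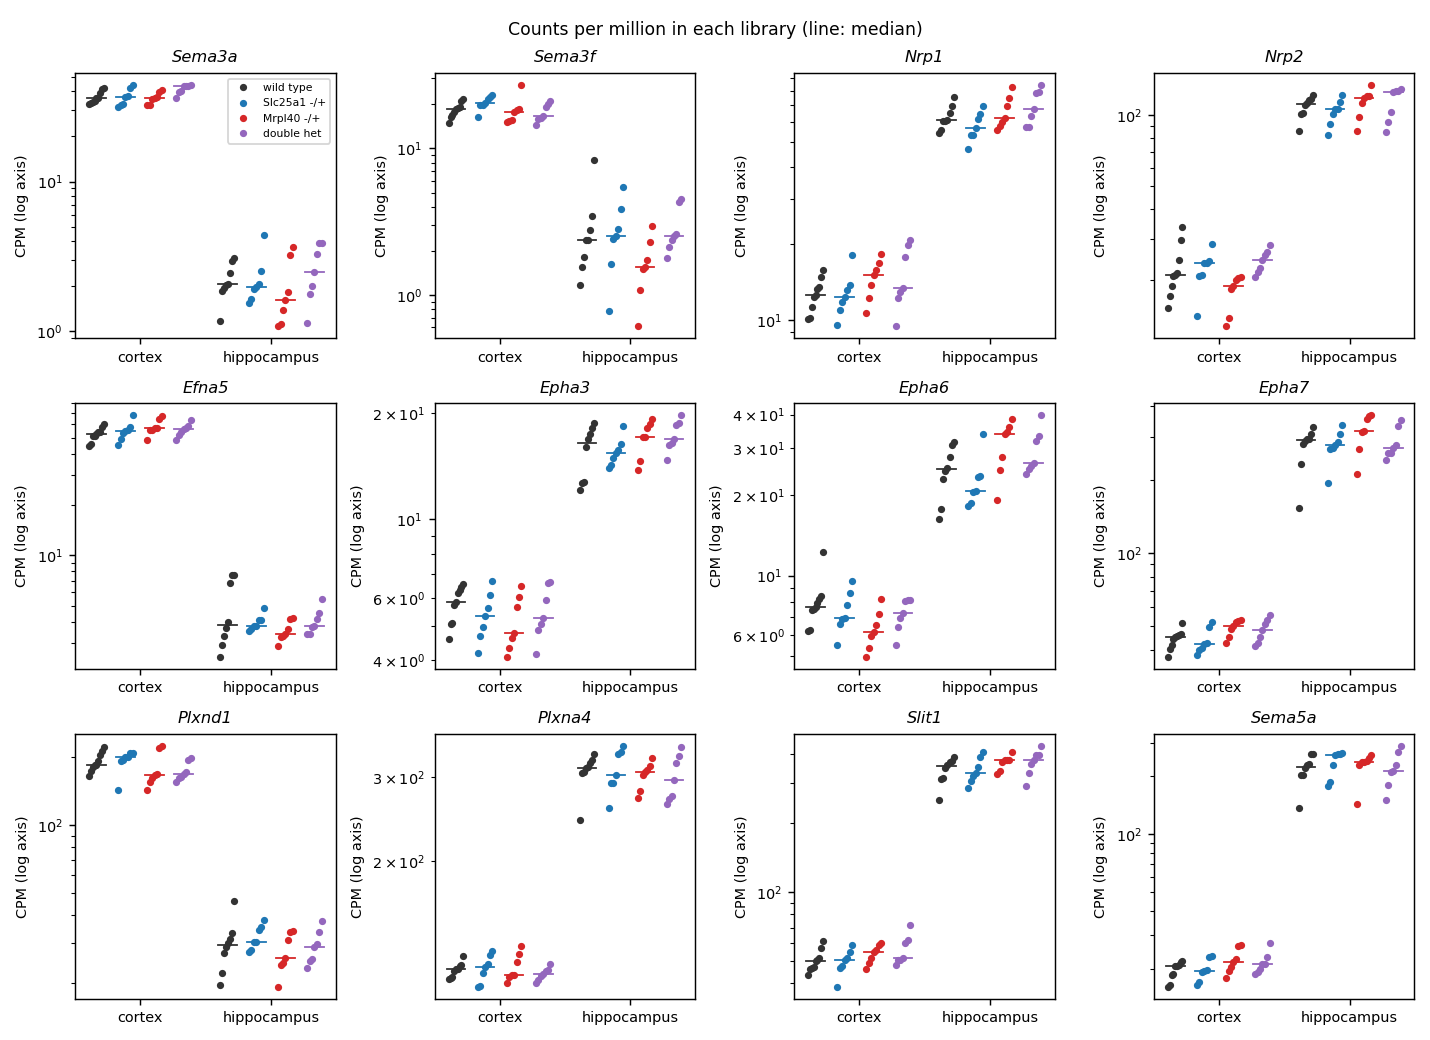
CPM on log axes in each of the 59 libraries for 12 guidance genes, by tissue and genotype, with a line at the median of each group. In all 4 genotypes the hippocampus points of Sema3a, Sema3f, Efna5 and Plxnd1 lie below the cortex points and those of the other 8 genes lie above.

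Plexins, the signalling receptors of semaphorins, were split into 3 higher, 3 lower and 3 that did not pass. Plxnd1 ranged from 165 to 222 CPM (median 186) in cortex and from 19.5 to 46.1 CPM (median 29.5) in hippocampus. The 2 tissues were far apart (log2 fold change -2.73 ± 0.123, adjusted p = 1.07e-16), opposite in sign to its ligand Sema3e. Plxna4, a partner of both neuropilins, ranged from 113 to 127 CPM (median 119) and from 244 to 334 CPM (median 314), a log2 fold change of 1.38 ± 0.0529 (adjusted p = 2.04e-21). Here too the lowest hippocampus value was that of animal 8, and it still lay above every cortex library.

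Plxnc1, the receptor of Sema7a, ranged from 51.8 to 59.4 CPM (median 54.2) in cortex and from 27.2 to 40.3 CPM (median 30.7) in hippocampus. It was lower in hippocampus without overlap (log2 fold change -0.75 ± 0.0561, adjusted p = 9.8e-14), and Sema7a was lower as well at -0.54. Plxna2 was lower by -0.38. Plxnb1 and Plxnb2, receptors of class 4 semaphorins, were higher by 0.31 and 0.24. The remaining plexins did not pass: Plxnb3 had 0.32 (95% interval 0.04 to 0.60, adjusted p = 0.0557, and 0.0287 with DESeq2), Plxna1 had 0.01 (-0.19 to 0.21) and Plxna3 had -0.02 (-0.16 to 0.12).

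The 13 membrane-bound semaphorins counted 6 higher, 6 lower and 1 that did not pass. Sema5a, which carries thrombospondin repeats, ranged from 16.1 to 21.9 CPM (median 20.6) in cortex and from 137 to 263 CPM (median 225) in hippocampus. Every hippocampus library was above every cortex library by a wide margin (log2 fold change 3.47 ± 0.0894, adjusted p = 7.34e-23). Its closest relative Sema5b ranged from 10.6 to 18.0 CPM (median 13.8) and from 23.4 to 31.7 CPM (median 28.9), also without overlap (log2 fold change 1.08 ± 0.135, adjusted p = 8.59e-08). Sema6d, a ligand of Plxna1, ranged from 49.8 to 61.8 CPM (median 58.0) and from 83.5 to 97.4 CPM (median 91.1), a log2 fold change of 0.67 ± 0.0544 (adjusted p = 1.01e-12). The ranges of Sema6d were separate as well.

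Class 4 and the other class 6 members moved less. Sema4a ranged from 63.9 to 84.9 CPM (median 70.2) in cortex and from 25.9 to 40.8 CPM (median 29.1) in hippocampus, the exception in size (log2 fold change -1.23 ± 0.0935, adjusted p = 3.91e-12). Lower in hippocampus were also Sema4c (-0.65), Sema6a (-0.42), Sema4g (-0.28) and Sema6b (-0.11). Higher were Sema4b (0.39), Sema4f (0.30) and Sema4d (0.23), a ligand of Plxnb1. Sema6c missed the threshold at -0.14 (adjusted p = 0.0527). Without animal 8 these last calls switched, with an adjusted p of 0.132 for Sema6b and 0.0307 for Sema6c, and without the 6 mismatched animals Sema6b had an adjusted p of 0.121.

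Slits and Robos form a ligand and receptor pair. Slit1 ranged from 43.6 to 61.4 CPM (median 50.0) in cortex and from 253 to 389.7 CPM (median 354) in hippocampus, a log2 fold change of 2.73 ± 0.0932 (adjusted p = 7.3e-20). Slit3 ranged from 27.4 to 35.6 CPM (median 31.3) and from 55.3 to 77.5 CPM (median 68.1), a log2 fold change of 1.08 ± 0.0678 (adjusted p = 8.9e-15). Neither overlapped, whereas Slit2 did not pass at -0.21 (95% interval -0.54 to 0.12). Robo1 ranged from 24.5 to 31.5 CPM (median 27.3) in cortex and from 40.1 to 64.3 CPM (median 46.9) in hippocampus (log2 fold change 0.90 ± 0.108, adjusted p = 4.38e-08), without overlap in wild type. Robo2 was lower by -0.19, and neither Robo3 (0.02, interval -0.24 to 0.29) nor Robo4, a Robo of blood vessels (-0.08, interval -0.25 to 0.10), passed.

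Of the netrin system the ligand did not pass while 4 of 5 receptors did. Ntn1 had medians of 9.34 CPM in cortex and 9.51 CPM in hippocampus (log2 fold change 0.01, 95% interval -0.20 to 0.21). Dcc, the attractive receptor, ranged from 14.3 to 16.9 CPM (median 15.4) in cortex and from 26.8 to 35.2 CPM (median 30.9) in hippocampus (log2 fold change 1.00 ± 0.0663, adjusted p = 4.39e-15). Dcc thus did not overlap between tissues. Unc5c had 22.3 to 27.6 CPM (median 25.3) and 38.0 to 57.6 CPM (median 45.3), a log2 fold change of 0.93 ± 0.0819 (adjusted p = 4.47e-11). Unc5a had 95.7 to 109.7 CPM (median 100.4) and 127 to 188 CPM (median 169), a log2 fold change of 0.68 ± 0.0566 (adjusted p = 2.67e-12). Both of these repulsive receptors were higher in hippocampus, but their relative Unc5d was lower. Unc5d ranged from 53.6 to 69.6 CPM (median 64.0) in cortex and from 15.1 to 27.3 CPM (median 18.0) in hippocampus (log2 fold change -1.75 ± 0.0952, adjusted p = 2.13e-15), and Unc5b did not pass at 0.17 (95% interval -0.09 to 0.44).

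Levels can be compared between genes only per length, as CPM per kb of exon. In wild-type cortex Sema7a (59.0 ± 5.99, SD, n = 9), Ephb6 (41.5 ± 3.89) and Sema6b (29.6 ± 1.78) were highest, and Efna4 (0.141), Epha1 (0.189) and Epha2 (0.268) lowest. In wild-type hippocampus Slit1 (57.5 ± 7.63, SD, n = 8), Efnb3 (49.0 ± 4.13) and Epha4 (48.4 ± 8.65) led, values that lie within an SD of each other for Efnb3 and Epha4. Sema3a (0.158), Epha2 (0.240) and Sema3b (0.277) were lowest there. Within families the top member per length stayed the same in both tissues for EphA (Epha4), EphB (Ephb6), ephrin-A (Efna3, within an SD of Efna5 in cortex), ephrin-B (Efnb3), netrin receptors (Unc5a), neuropilins (Nrp2), Robos (Robo3), membrane semaphorins (Sema7a) and Slits (Slit1). It differed for plexins, from Plxnd1 (26.2) in cortex to Plxna4 (21.8) in hippocampus, and for secreted semaphorins, from Sema3f (3.54) to Sema3e (4.88).

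**Figure D3:**
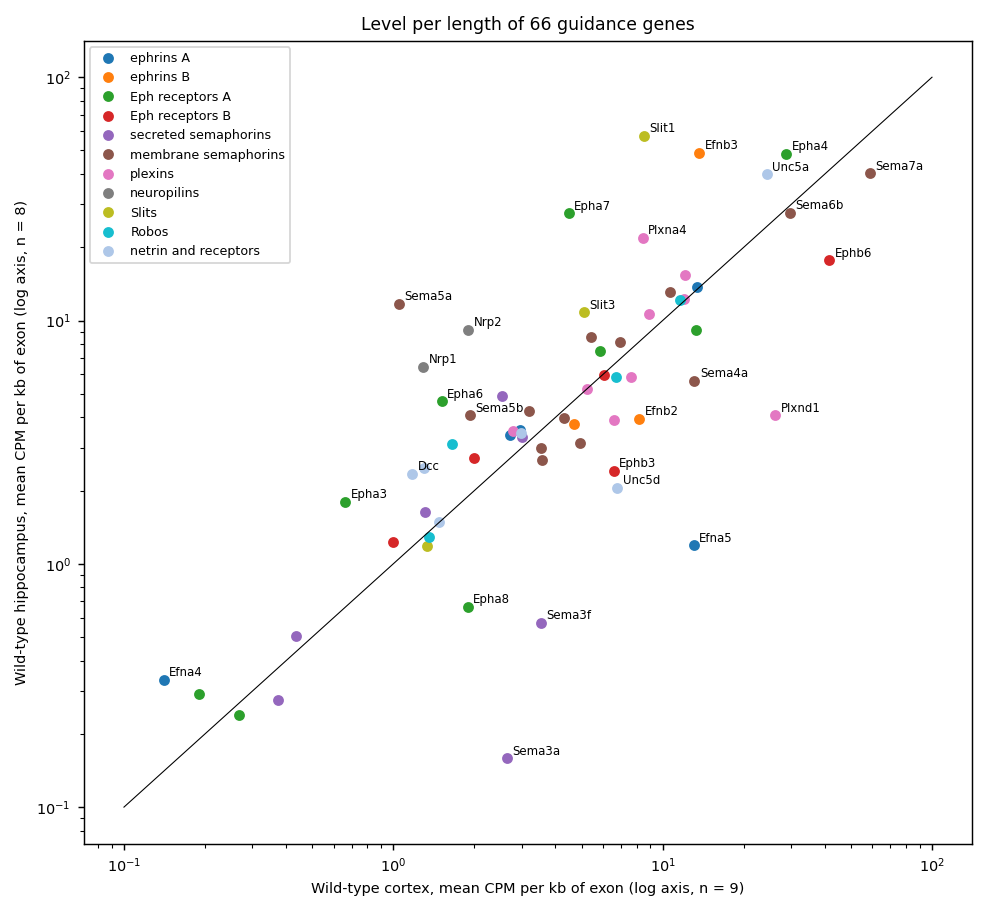
Mean CPM per kb of exon of the 66 guidance genes in wild-type cortex (horizontal, n = 9) and hippocampus (vertical, n = 8), on log axes, coloured by family, with a line of equality. Sema3a, Efna5, Sema3f and Plxnd1 lie farthest below the line and Sema5a, Slit1, Epha7, Nrp1 and Nrp2 farthest above it.

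The tissue difference was then read in the 3 other genotypes, which hold other animals but share the estimate of spread. In Slc25a1 hets 49 members passed (30 higher, 19 lower; 60.4% of all genes passed), in Mrpl40 hets 47 (29 and 18; 60.3%) and in double hets 47 (28 and 19; 57.5%). In the same direction in all 4 genotypes, 26 members were higher and 17 lower, and 45.0% of all genes were called so in either direction. Of the 53 members that passed in wild type, 47 passed in the same direction in Slc25a1 hets, 46 in Mrpl40 hets and 46 in double hets. No member was called in opposite directions. These last counts were not made over all genes called in wild type, so they are not read as particular to the members. For Sema3a the log2 fold changes were -4.04 in Slc25a1 hets, -4.22 in Mrpl40 hets and -4.01 in double hets. For Sema5a they were 3.56, 3.36 and 3.33, for Slit1 2.77, 2.77 and 2.71, and for Efna5 -3.79, -4.02 and -3.79. The 10 members that passed in no genotype were Efna3, Epha2, Ephb1, Ntn1, Plxna3, Robo3, Robo4, Sema3d, Sema6c and Unc5b.

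Over all genotypes, 15 members had all 29 hippocampus libraries above all 30 cortex libraries, which 7.09% of all genes did. They were the receptors Dcc, Epha3, Epha6, Epha7, Nrp1, Nrp2, Plxna4, Unc5a and Unc5c and the ligands Efnb3, Sema5a, Sema5b, Sema6d, Slit1 and Slit3. A further 12 lay wholly below (7.83% of all genes): Ephb3, Ephb6, Plxna2, Plxnc1, Plxnd1 and Unc5d among receptors, and Efna5, Efnb2, Sema3a, Sema3f, Sema4a and Sema4c among ligands. Across the 30 cortex libraries Sema3a spanned 31.3 to 44.0 CPM and across the 29 hippocampus libraries 1.08 to 4.37 CPM. Sema5a spanned 16.1 to 27.2 CPM in cortex and 137 to 289 CPM in hippocampus.

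Single libraries bear on some of these values. Hippocampus animal 8 lay outside the range of the other 7 wild-type libraries for 33 members, for 26 of them on the side of the cortex level. Among these were Epha7 (153 CPM), Slit1 (253 CPM), Sema5a (137 CPM) and Plxnd1 (46.1 CPM). The same count was not made over all genes, so it describes the library and is not read as particular to guidance genes. Without that library 52 members passed in wild type, with Efna1 and Sema6b lost and Sema6c gained, and the fold of no member named above moved by more than that of Sema3f. Animal 12, labelled Slc25a1 het, had the highest hippocampus level of Epha8 (10.9 CPM), Ntn1 (19.4 CPM) and Sema4g (42.2 CPM) beside its cerebellar granule cell markers, whose part was not tested. Animal 22, an Mrpl40 het, was the highest of the 29 hippocampus libraries for 7 members, including Plxna1 (229.9 CPM), Robo1 (75.7 CPM), Sema3e (93.0 CPM) and Slit2 (59.6 CPM), and the lowest for 10. By the same count wild-type animal 2 was the highest for 7 members and the lowest for 5. Animal 30, labelled double het, was the highest for 2 and the lowest for 4. Such counts were not made over all genes.

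Some summed markers of other cell types also differed between the tissues in wild type. Beside the counts of markers called, 30.4% of all genes tested were called higher in hippocampus and 30.1% lower. Without overlap, the choroid plexus sum ranged from 4.13 to 8.84 CPM in cortex and from 24.3 to 34.7 CPM in hippocampus, with 3 of 8 tested genes called higher. The striatal sum ranged from 151 to 196 CPM and from 80.9 to 97.4 CPM, with 4 of 11 genes called higher and 6 lower in hippocampus. For the cerebellar granule cell list it ranged from 123 to 155 CPM and from 175 to 304 CPM, with 2 of 11 called higher. Of that list, Cbln3 had medians of 0.627 CPM in cortex and 0.752 CPM in hippocampus, and Gabra6 0.0 and 0.0168 CPM. The higher sum is thus not read as more cerebellar granule cells. Oligodendrocyte precursors had 233 to 257 CPM and 301 to 334 CPM, with 3 of 6 called higher. The ranges overlapped for astrocytes (4941 to 5645 and 5616 to 6929 CPM, 5 of 12 called higher and 1 lower, median log2 fold change 0.06), oligodendrocytes (1868 to 2984 and 2103 to 4921 CPM, 1 of 12 called higher) and meningeal cells (medians 43.7 and 72.2 CPM, 4 of 10 called higher and 1 lower). Sums overlapped too for microglia (383 to 476 and 387 to 492 CPM), with 0 of 12 genes called. Endothelial cells and pericytes had 318 to 396 and 295 to 384 CPM, with 1 of 12 called lower. Thalamic markers had 235 to 274 and 206 to 290 CPM, with 4 of 8 tested genes called higher and 2 lower. The part of these cell types in the members' differences was not tested.

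Genes that work with these families, from a pair of lists of non-members, differed between the tissues in both directions too. Among all genes tested, 30.4% were called higher in wild-type hippocampus and 30.1% lower. Of 55 cytoplasmic signalling genes, 25 were higher in wild-type hippocampus, 26 lower and 4 did not pass. Rnd1, a GTPase that binds plexins, was lower (log2 fold change -2.86), with a mean of 41.7 ± 4.18 CPM (SD) in cortex and 5.81 ± 2.06 CPM in hippocampus. Chn2, a Rac GTPase-activating protein, was lower at -1.74. Vav3, a guanine nucleotide exchange factor recruited by Eph receptors, was higher at 1.94. Of 48 tested among 49 other guidance cues and receptors, 15 were higher, 22 lower and 11 did not pass. The contactin Cntn6 was lower at -1.76, and Islr2, a membrane protein of growing axons, was higher at 1.93. Draxin, a netrin-binding repellent, had the largest positive difference of the list at 2.76, at the low means of 0.273 ± 0.137 CPM in cortex and 1.97 ± 0.466 CPM in hippocampus.

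The question of the design is whether the heterozygous genotypes differ from wild type. No guidance gene passed edgeR's quasi-likelihood test in any of the 12 genotype comparisons, with 65 members tested in cortex and 66 in hippocampus, nor did any without the 6 mismatched animals. Against wild type, the share of all genes that passed in cortex was 0.0% for Slc25a1 het, 0.0294% for Mrpl40 het and 0.0686% for double het, and in hippocampus 0.0%, 0.00496% and 0.00992%. At an unadjusted p under 0.05 there were 0, 7 and 7 members in cortex and 4, 8 and 1 in hippocampus, where 3.17%, 6.94%, 10.9%, 7.77%, 8.19% and 5.28% of all genes were under it. These 6 comparisons share the wild-type libraries of their tissue. DESeq2's Wald test gave 0 members in 11 of the 12 comparisons and 1, Efna1, for Mrpl40 het against wild type in hippocampus.

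The intervals show how large an undetected difference between the labelled groups could be. The 6 mismatched animals are in these groups, so the intervals do not bound a difference by measured Slc25a1 level. The counts of intervals were not made without those animals. In cortex the 95% interval of the fold against wild type lay within 1.5-fold for 65 of 65 members in Slc25a1 hets, 63 in Mrpl40 hets and 64 in double hets. In hippocampus it did so for 61, 55 and 59 of 66. The log2 fold changes against wild type spanned -0.11 to 0.19, -0.34 to 0.29 and -0.24 to 0.27 in cortex. In hippocampus they spanned -0.46 to 0.48, -0.85 to 0.41 and -0.29 to 0.27. The 0.48 was Epha8 in Slc25a1 hets, highest in animal 12, and was 0.19 without the 4 libraries that stood apart. The -0.85 was Sema3f in Mrpl40 hets and was -0.40 without wild-type animal 8 and -0.25 without all 4. Without the 4 libraries the hippocampus ranges were -0.52 to 0.25, -0.39 to 0.23 and -0.28 to 0.41. Without the 6 mismatched animals the ranges were -0.20 to 0.22, -0.36 to 0.32 and -0.25 to 0.20 in cortex. In hippocampus they were then -0.60 to 0.26, -0.96 (Sema3f) to 0.33 and -0.30 to 0.28. The plot of the values with all libraries beside the tissue difference shows both on the same scale.

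**Figure D4:**
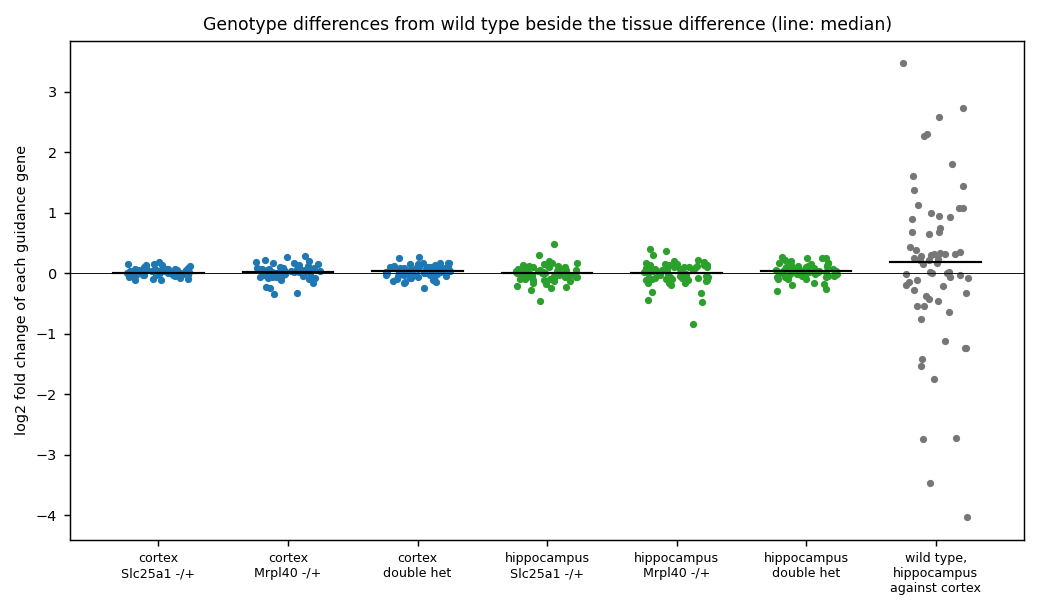
Log2 fold change of each guidance gene (points) for the 3 heterozygous genotypes against wild type in cortex and hippocampus, and for wild-type hippocampus against cortex, with a line at the median. Genotype values lie between -0.85 (Sema3f, -0.25 without the 4 libraries that stood apart) and 0.48 (Epha8, 0.19 without them), while the tissue values reach from -4.03 to 3.47.

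Efna1, the ephrin with the smallest p of any genotype comparison, had medians in hippocampus of 6.74 CPM for wild type, 5.92 for Slc25a1 het, 4.63 for Mrpl40 het and 5.54 for double het. Its lowest and highest values were 5.31 and 7.52, 4.60 and 6.81, 3.59 and 5.60, and 4.02 and 6.62 CPM in that order, so that all groups overlapped. For Mrpl40 het against wild type the log2 fold change was -0.47 ± 0.112 with an adjusted p of 0.286, and DESeq2 gave -0.47 with an adjusted p of 0.0495. Over the alternatives the adjusted p ranged from 0.0495 to 0.881, the latter without the 4 hippocampus libraries that stood apart. In cortex the Efna1 medians were 5.17, 6.08, 4.11 and 5.04 CPM in the same order, also overlapping. The log2 fold change there was 0.19 for Slc25a1 het and -0.24 for Mrpl40 het against wild type (adjusted p = 1.00 and 0.662), and -0.31 for double het against Slc25a1 het (adjusted p = 0.275).

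Other members with the smallest p against wild type showed small differences that did not pass. In cortex these were Sema6d (-0.09) and Epha10 (0.07) in Slc25a1 hets, Epha6 (-0.34) and Nrp2 (-0.33) in Mrpl40 hets, and Plxna3 (-0.14), Sema3a (0.18) and Sema3c (0.16) in double hets. In hippocampus they were Plxnb2 (0.15), Ntn1 (0.31) and Efnb1 (-0.18) in Slc25a1 hets, Sema4f (0.15) and Robo2 (0.16) in Mrpl40 hets, and Sema4b (-0.10) and Sema6c (0.17) in double hets. The Ntn1 value was 0.14 without the 4 libraries that stood apart, animal 12 among them. Plxnb2 in hippocampus ranged from 77.4 to 85.8 CPM (median 81.9) in wild type and from 84.7 to 105 CPM (median 87.0) in Slc25a1 hets, with adjusted p = 0.485 and its highest value in animal 12.

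**Figure D5:**
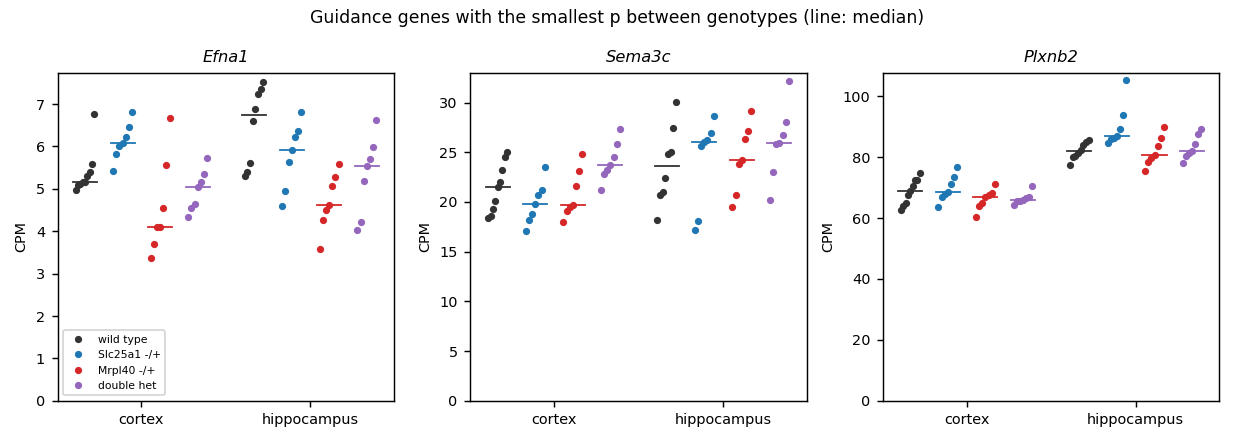
CPM of Efna1, Sema3c and Plxnb2 in each library by tissue and genotype, on axes that start at 0, with a line at the median. The genotypes overlap in each tissue, and the median of Efna1 in hippocampus is 6.74 CPM in wild type and 4.63 CPM in Mrpl40 het.

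Double hets were also compared with each single het, and the interaction asked whether their change departs from the sum of both single changes on the log2 scale. In cortex 0 members passed in these 3 comparisons, where 0.0588% (against Slc25a1 het), 0.0049% (against Mrpl40 het) and 0.0% (interaction) of all genes did, and 9, 6 and 4 members had an unadjusted p under 0.05, as did 9.92%, 6.94% and 5.35% of all genes. In hippocampus 0 members and 0.0% of all genes passed in each, with 7, 3 and 1 members under an unadjusted p of 0.05, where 9.04%, 4.68% and 3.39% of all genes were. DESeq2 called 0 members in all 6. Sema3c in cortex had medians of 21.5, 19.8, 19.7 and 23.7 CPM in the same order of genotypes. Its double het values of 21.2 to 27.3 CPM overlapped those of wild type (18.4 to 25.0 CPM), and the interaction was 0.31 ± 0.106 (adjusted p = 0.800). Plxnc1 in cortex had an interaction of 0.19 and Robo1 one of 0.18, with double het medians of 58.8 and 29.0 CPM against 54.2 and 27.3 CPM in wild type. Nrp2 in cortex was 0.43 higher in double het than in Mrpl40 het on the log2 scale (adjusted p = 0.556). In hippocampus the smallest p values were those of Plxnb2 (-0.13), Sema6b (0.21) and Nrp1 (0.25) against Slc25a1 het and of Sema6a (0.28), Plxnb3 (0.27) and Sema4f (-0.13) against Mrpl40 het. For the hippocampus interaction they were those of Efna1 (0.35), Plxnb2 (-0.12) and Efna5 (0.47).

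Whether the tissue difference itself varied with genotype was tested directly. No member passed edgeR's test for Slc25a1 het, Mrpl40 het or double het against wild type (0.0%, 0.0% and 0.0234% of all genes passed), DESeq2 gave 0 as well, and 5, 7 and 1 members had an unadjusted p under 0.05, as did 6.00%, 5.83% and 5.03% of all genes. The log2 change of the tissue difference was -0.32 for Efnb1, 0.20 for Sema6d and -0.14 for Sema4b in Slc25a1 hets. In Mrpl40 hets it was 0.64 for Epha6, 0.18 for Sema6b and -0.56 for Efna5. In double hets it was 0.17 for Sema6b, 0.16 for Sema6c and 0.94 for the scarce Efna4. The 95% interval lay within 1.5-fold for 56, 52 and 58 of 66 members.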

How the data were processed

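Poly(A) RNA of 59 libraries from male mice was measured by paired-end sequencing of directional libraries. The values used are raw counts per gene deposited by the authors. Per the submitters' processing notes, FastQC, HISAT2, featureCounts and DESeq2 were used with the builds mm39 and GRCm39. Versions, settings and the strand option of the counting were not given in the sources used here, and reads of genes that overlap on opposite strands may not be told apart. The deposited normalized table was not used here.

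Totals of 21443017 to 32120906 counts per library set the precision. Of 57180 gene rows, 44147 were above 0 in any library, and 7074 had a blank symbol and were kept under their gene identifiers. Groups came from the labels. Counts were fitted with edgeR 4.0.16 in R 4.3.3 (limma 3.58.1 and the data.table package, version 1.17.8): TMM scaling, the filter on low counts by group, robust quasi-likelihood dispersion, Benjamini-Hochberg adjustment over all genes tested (21354 for tissues, 20394 in cortex, 20162 in hippocampus) and a false discovery rate of 0.05. The 4 genotypes of a tissue were fitted together, and tissues were compared over the 29 animals with both tissues with the animal as a block. Efna4 did not pass the filter in cortex. The SE was derived from the test, as the size of the log2 fold change divided by the square root of its F statistic. Intervals are the log2 fold change plus or minus 1.96 SE. That multiplier is of the normal distribution, so they are somewhat narrower than intervals from the test's own distribution. CPM per kb used exon lengths of GENCODE vM21 (GRCm38), matched by identifier for 66 of 66 members, whereas counting used another build. Python 3.11.15, pandas 2.3.3, numpy 2.4.6 and matplotlib 3.10.9 made the tables and figures.

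The members, the lists and the tests were chosen with earlier results of these data known. Named in the tissue comparison of wild type were up to 30 members past the test with a fold of at least 1.5, largest first, and elsewhere every member that passed or, under 3 such, the 3 with the smallest p. By level they were the 3 highest and 3 lowest per length and the top of each family, and of the other lists the 3 largest differences in each direction. Other members were named for completeness or after their values were seen.

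The alternatives tried were no filter on low counts, edgeR with size factors of DESeq2 1.42.0, the Wald test of DESeq2, leaving out the 6 animals in which Slc25a1 did not match the labelled genotype, fitting only the genotypes compared, the animal block removed for tissues and the replicate number as a block for genotypes. After the data had been seen, fits were added without hippocampus library 8 of wild type and without the 4 hippocampus libraries that stood apart.

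The pairing of tissues comes from the animal numbers in the labels. Deviations from group means over 5000 genes correlated between the tissues of an animal with a median of 0.109 (range -0.0294 to 0.414 over 29 animals) and between different animals with -0.00987. On simulated data with genes changed at random, the tissue fit of wild type recovered 53.1%, 67.7% and 84.8% of 1.2-fold, 1.5-fold and 2-fold changes among 21354 genes with 6 false calls. Changed were 64, 65 and 66 genes, with no animal effect simulated, whereas 60.6% of all genes were called in the data. These rates are thus not those of the test for the members. The fit of cortex double het against wild type recovered 26.2%, 64.1% and 80.3% among 20394 genes with 7 false calls.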

Additional observations from a re-analysis of the deposited data

Results flagged for a closer look

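Within each group of 7 to 9 libraries, the highest and lowest library of each named member were checked for a wide gap to the nearest other library. Of 144 groups checked, 14 libraries stood out by Dixon's criterion at 95%, which chance gives for about 1 group in 20.

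Of these, 6 came from hippocampus library 8 of wild type. It was the lowest of its group for Epha4 (242 CPM, the nearest at 355), Plxna4 (244 CPM, the nearest at 305) and Sema5a (137 CPM, the nearest at 203). It was the highest for Sema3f (8.35 CPM, the nearest at 3.44), Sema4a (40.8 CPM, the nearest at 32.9) and Sema6a (30.2 CPM, the nearest at 24.6). Each of these 6 values lay toward the cortex level of the gene.

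In hippocampus also stood out Unc5d in wild-type animal 2 (27.3 CPM, the nearest at 20.5), Robo2 in animal 12, labelled Slc25a1 het, (the lowest at 88.0 CPM, the nearest at 102) and Plxnb3 in Mrpl40 het animal 22 (27.4 CPM, the nearest at 22.4). In cortex the highest library stood out for Efna1 in wild-type animal 4 (6.77 CPM, the nearest at 5.60), Epha6 in wild-type animal 2 (12.3 CPM, the nearest at 8.40), Sema6d in animal 13, labelled Slc25a1 het, (62.3 CPM, the nearest at 54.6) and Robo1 in Slc25a1 het animal 16 (29.9 CPM, the nearest at 26.2) and in animal 30, labelled double het (34.5 CPM, the nearest at 30.2). In animals 12, 13 and 30 the Slc25a1 level did not match the label.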

How the results depend on the processing

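The tissue counts moved little. In wild type 53 members passed, and 48 to 53 did so over the alternatives, the lowest without the 6 animals in which Slc25a1 did not match the labelled genotype. The ranges were 48 to 50 in Slc25a1 hets, 46 to 47 in Mrpl40 hets and 45 to 49 in double hets. Without the replicate block by animal, 52 members passed for wild type, 49 for Slc25a1 het, 46 for Mrpl40 het and 47 for double het. No named member changed direction in any alternative run.

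All genotype comparisons and all tests of the tissue difference by genotype gave 0 members in every alternative run, with 1 exception. For Mrpl40 het against wild type in hippocampus the DESeq2 Wald test gave 1 member, Efna1. With the replicate number as a block each genotype comparison gave 0 members. The numbers were not taken to pair genotypes, since same-numbered animals of different genotypes correlated with a median of 0.126 in cortex (range -0.411 to 0.537, against -0.0277 for different numbers) and 0.0432 in hippocampus (range -0.478 to 0.516, against 0.0109). Depth limits the scarce members: Efna4, at a median of 0.231 CPM in wild-type cortex, was not tested between genotypes there.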
